A study of Marchantia polymorpha with 12 samples.

Results

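In the liverwort Marchantia polymorpha, 14 of 18336 genes divided their RNA counts between transcript models differently in both mutant lines, in the same direction, while the level of the gene as a whole differed from its wild type by less than a factor of 2. A transcript model is one of the RNA forms that an annotation lists for a gene, and its share is its percentage of the gene's counts in a library. The 14 genes were chosen from the measured values. They had at least 2 models, lay on an autosome, had group means of 10 to 1000 CPM (counts scaled to a common library total) in all 4 groups, and had a ratio of group means between 0.5 and 2 in Mpfer-1 against Tak-1 and in Mpmri-1 against Tak-2. At least 1 model's mean share had to shift by 15 percentage points or more, the same way, in both comparisons. Of the 3046 genes with 2 or more models, 1622 met every limit except the one on the shift. The shifts and gene levels in these 2 comparisons were used to choose the genes, so they are described here without a test.

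RNA came from thalli and rhizoids, the root-like hairs of the liverwort, of plants grown from gemmae for 3 weeks. Mpfer-1 is a male line labelled as a knockdown of the receptor-like kinase gene MpFER, and its reference is the male wild type Tak-1. Mpmri-1 is a female line labelled as a knockdown of the kinase gene MpMRI, and its reference is the female wild type Tak-2. Each group had 3 libraries, lettered A to C, from the whole tissue, and each knockdown was represented by 1 line. Both lines carry short rhizoids that burst, and the study asked which pathways depend on the MpFER/MpMRI pair. How the knockdowns were made, and whether the libraries came from separate cultures, is not given in the sources used here, so the spread between libraries may be technical.

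FERONIA-type receptor kinases span the plasma membrane and are known, from Arabidopsis, for sensing the state of the cell wall. MARIS, a cytoplasmic kinase, acts downstream of such receptors in tip-growing cells, also in Arabidopsis. A plant gene can give several RNA forms through alternative splicing, alternative starts or alternative ends. In plants the retention of an intron is a common form of alternative splicing. Such forms can differ in the protein they encode, or carry an early stop and be degraded. The deposited table names models only by number, so what distinguishes 2 models of a gene is not known here, and no sequence was at hand to show it.

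Library totals ran from 25548038 to 35313222 estimated counts. MpFER was at 121, 102 and 111 CPM in Mpfer-1, against 178, 178 and 153 CPM in Tak-1, and was called lower (log2 fold change -0.78, SE 0.081, edgeR quasi-likelihood adjusted p = 7.18e-06). MpMRI was at 557, 569.6 and 712 CPM in libraries labelled Mpmri-1, against 248, 257 and 260.1 CPM in Tak-2, and was called higher by edgeR, with a log2 fold change of 1.40 (SE 0.078, adjusted p = 4.42e-08). The MpMRI level therefore goes against the label of a knockdown. Of 13 tissue markers fixed by symbol, 11 were found. The oil body genes MYB02 and C1HDZ and the gemma cup gene GCAM1 were higher with no overlap in both lines, and the phototropin gene PHOT was lower in both. The levels of a further oil body gene, ERF13, overlapped in both comparisons, at a mean of 6.44 CPM in Mpfer-1 against 7.52 CPM in Tak-1 and 7.57 CPM in libraries labelled Mpmri-1 against 6.71 CPM in Tak-2. The small Rubisco subunit gene RBCS was also lower in Mpfer-1, at a mean of 94.2 CPM against 293 CPM in Tak-1. In the other comparison RBCS overlapped, at 191 CPM in libraries labelled Mpmri-1 against 159 CPM in Tak-2. The rhizoid genes RSL1 and CSLD1 and the air pore gene NOP1 overlapped in both comparisons. The share of all genes without overlap in level was not counted. These levels are scaled by column totals, by which the median log2 fold change over all genes was 0.20 in Mpfer-1 and -0.13 in Mpmri-1. For MYB02 the lowest Mpfer-1 library was at 11.6 CPM and the highest Tak-1 library at 10.4 CPM. Overlap of the markers on another scale was not examined. The summed level of the 11 markers was 446 to 522 CPM in Mpfer-1 against 631 to 707 CPM in Tak-1, and 468 to 547 CPM in libraries labelled Mpmri-1 against 568 to 582.04 CPM in Tak-2. BNB, a gene of sexual branches, was at 0 in 11 of the 12 libraries. FGMYB, another such gene, was at 0 in the 3 libraries labelled Mpmri-1 and at 0.00, 0.0351 and 0.0662 CPM in Tak-2. In the male groups FGMYB was found, at 5.69, 3.70 and 5.69 CPM in Mpfer-1 and 3.82, 4.18 and 3.80 CPM in Tak-1. The part of these tissue differences in the model shares was not tested. In whole tissue, fewer cells of a type and less RNA per cell cannot be told apart, and neither can a different use of models within cells and a different mix of cells.

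Among the 1622 genes, 73 (4.5%) had a model that shifted by 15 points or more in Mpfer-1 against Tak-1, and 108 (6.66%) had one in Mpmri-1 against Tak-2. Both comparisons reached that size in 23 genes. The shift ran the same way in 14 of them, the opposite way in the same model in 7, and concerned different models in 2. The 14 genes made up 19.2% of the genes shifted in Mpfer-1 and 13.0% of those shifted in Mpmri-1. The median of a gene's largest shift over all 1622 genes was 3.57 points in Mpfer-1 against Tak-1 and 3.86 points in Mpmri-1 against Tak-2.

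**Figure D1:**
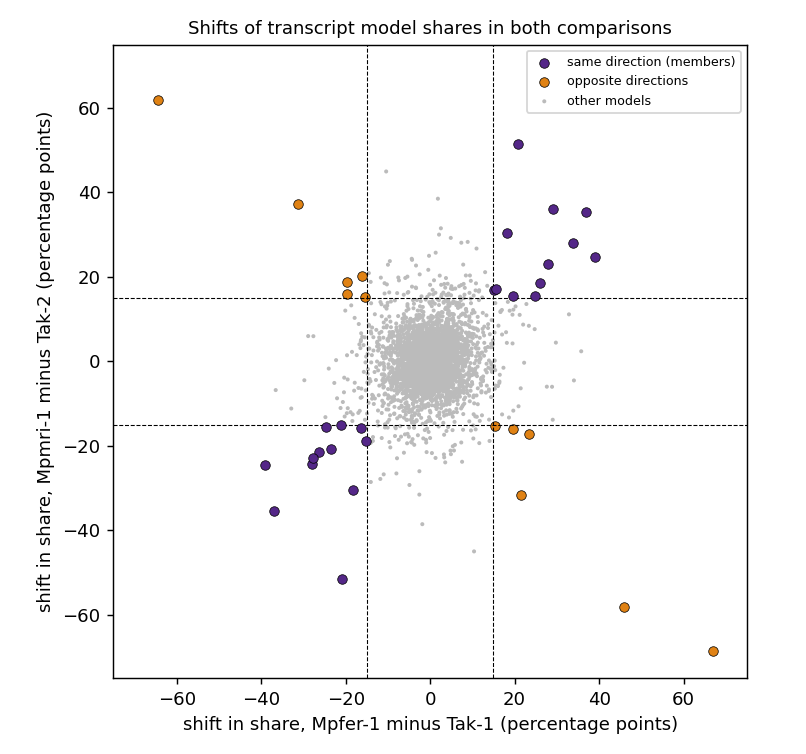
Shift in each transcript model's share of its gene's counts, in percentage points, for Mpfer-1 minus Tak-1 (horizontal) and Mpmri-1 minus Tak-2 (vertical), 1 point per model of the 1622 genes. The 14 genes chosen for a shift of 15 points or more the same way occupy the lower left and upper right, and the 7 genes that moved in opposite directions the other corners.

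Of the 14 genes, 3 carry a symbol in the reference table: MpPKC1, MpGID1L6 and MpABA4. For the other 11 no role is given, and they are called by their identifiers. Exactly 2 models were listed for 6 genes, 3 models for 4, and more than 3 for 4, up to 24 in Mp3g02140. In 10 genes, 2 models passed the limit, 1 with a higher and 1 with a lower share in the lines, and in 4 genes only 1 model did. The model described for each gene, its switching model, is the one whose smaller shift over the 2 comparisons was largest.

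**Figure D2:**
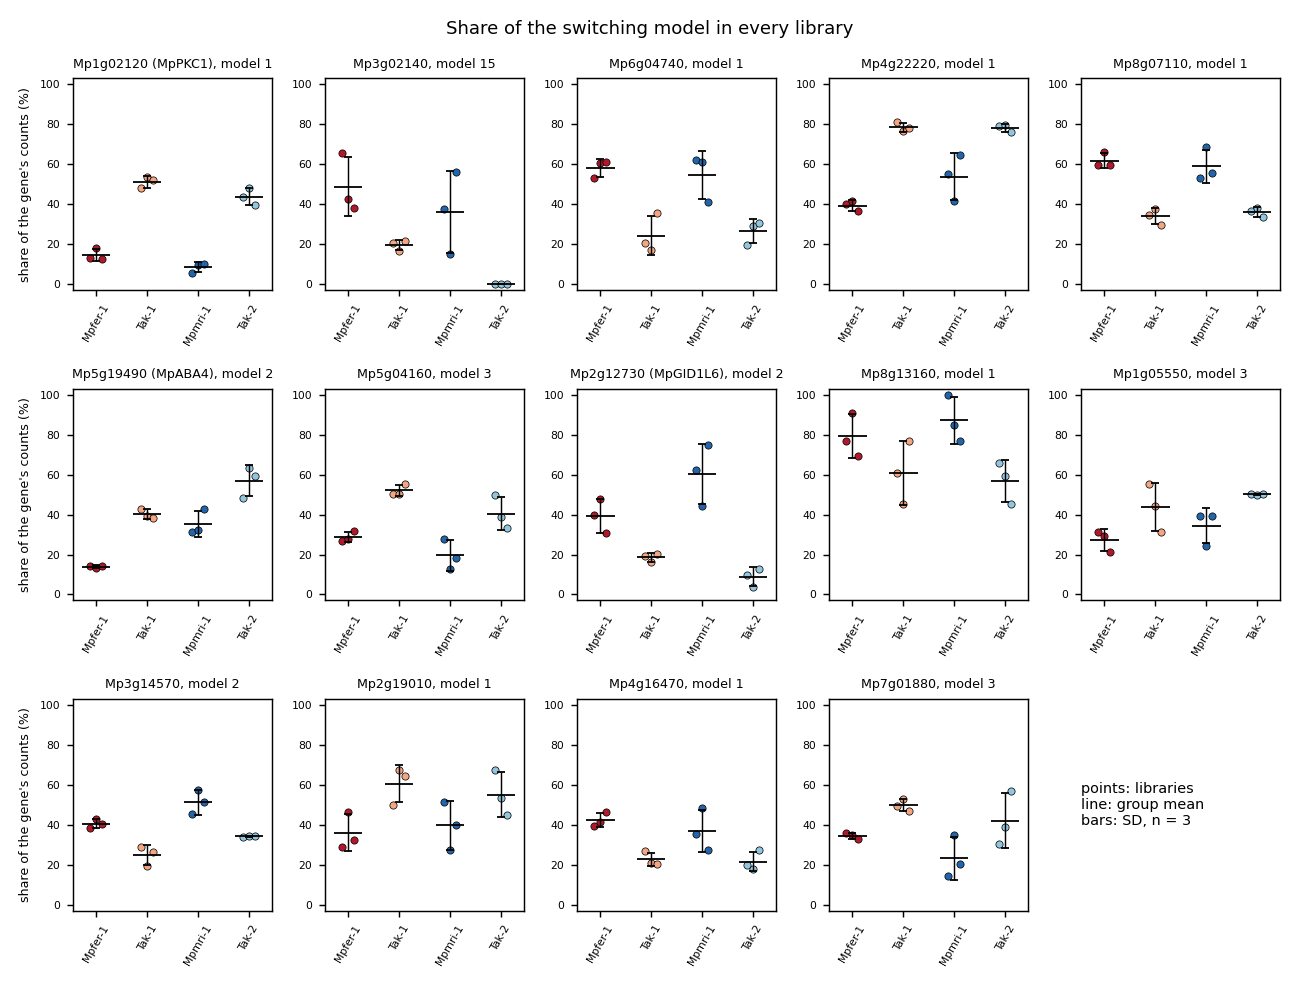
Share of the gene's counts (%) taken by the switching model of each of the 14 genes, by library (points), with the group mean (line) and SD (bars, n = 3). Mpfer-1 stands left of Tak-1 and Mpmri-1 left of Tak-2, and in 11 of the 14 genes the mutant and wild-type points do not overlap in either comparison.

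MpPKC1 (Mp1g02120), with 2 models, had the largest smaller shift of the 14 genes. Model 1 made up 12.9, 18.0 and 12.5% of its counts in Mpfer-1, against 48.1, 53.8 and 52.2% in Tak-1. It made up 5.78, 9.51 and 10.3% in the libraries labelled Mpmri-1, against 43.8, 48.2 and 39.6% in Tak-2. Every mutant library thus lay below every wild-type library of its own sex, with shifts of -36.9 and -35.3 points. The level of model 1 was 9.66 ± 1.78 CPM in Mpfer-1 against 29.4 ± 3.54 CPM in Tak-1, and 6.22 ± 2.14 CPM in libraries labelled Mpmri-1 against 26.6 ± 3.13 CPM in Tak-2 (SD, n = 3 each). Model 2 was at 57.2 ± 3.98 CPM in Mpfer-1 against 27.9 ± 3.64 CPM in Tak-1, and at 65.9 ± 9.11 CPM in libraries labelled Mpmri-1 against 34.0 ± 3.24 CPM in Tak-2. The summed level of the gene differed much less, at 66.9 ± 2.75 CPM in Mpfer-1 against 57.3 ± 6.40 CPM in Tak-1 and 72.2 ± 10.5 CPM in libraries labelled Mpmri-1 against 60.6 ± 3.48 CPM in Tak-2. Both wild types divided the counts of this gene nearly evenly between the models, while model 2 held most of them in both lines.

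MpGID1L6 (Mp2g12730) is named for its likeness to GID1, the gibberellin receptor of flowering plants. Model 2, the lesser of its 2 models in both wild types, made up 39.9, 47.7 and 30.8% of the counts in Mpfer-1, against 19.4, 16.2 and 20.4% in Tak-1. Its share was 62.1, 44.4 and 74.6% in the libraries labelled Mpmri-1, against 9.92, 3.86 and 12.9% in Tak-2. The shifts were 20.8 points in Mpfer-1 and 51.5 points in Mpmri-1, and the groups did not overlap. Of the 28 shifts of the 14 genes, that in Mpmri-1 was the largest. The 3 libraries labelled Mpmri-1 spread widely, with an SD of 15.2 points. In level, model 2 stood at 12.7 ± 2.57 CPM in Mpfer-1 against 3.94 ± 0.80 CPM in Tak-1, a ratio of 3.23. It stood at 23.2 ± 6.94 CPM in libraries labelled Mpmri-1 against 2.46 ± 1.32 CPM in Tak-2, a ratio of 9.44. Model 1 was at 19.7 ± 3.84 CPM in Mpfer-1 against 17.0 ± 1.67 CPM in Tak-1, so most of the higher gene level in Mpfer-1 lay in model 2. It was at 14.9 ± 4.91 CPM in libraries labelled Mpmri-1 against 24.9 ± 0.696 CPM in Tak-2.

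MpABA4 (Mp5g19490) is named after the Arabidopsis gene ABA4, which is needed to make neoxanthin, a carotenoid precursor of the stress hormone abscisic acid. Model 2, of 3 models, made up 14.1, 13.0 and 14.5% of its counts in Mpfer-1, against 43.0, 39.2 and 38.2% in Tak-1. It made up 31.1, 32.2 and 42.9% in the libraries labelled Mpmri-1, against 48.2, 63.3 and 59.2% in Tak-2. Neither comparison overlapped in model 2, with shifts of -26.3 and -21.5 points. Model 3 took the opposite course by its means, at 60.5 ± 1.57% in Mpfer-1 against 34.5 ± 1.20% in Tak-1, and at 35.4 ± 10.04% in the libraries labelled Mpmri-1 against 16.9 ± 13.0% in Tak-2. The second comparison overlapped in model 3, at 37.4, 44.2 and 24.4% in the libraries labelled Mpmri-1 against 31.8, 7.72 and 11.1% in Tak-2. Model 1 had mean shares between 25.3 and 29.3% in the 4 groups. The gene as a whole went opposite ways: 60.4 ± 11.3 CPM in Mpfer-1 against 34.7 ± 2.10 CPM in Tak-1, but 26.6 ± 3.50 CPM in libraries labelled Mpmri-1 against 33.5 ± 1.0005 CPM in Tak-2. The level of model 3 was 36.4 ± 5.91 CPM in Mpfer-1 against 11.96 ± 0.390 CPM in Tak-1, and 9.62 ± 3.83 CPM in libraries labelled Mpmri-1 against 5.66 ± 4.41 CPM in Tak-2, again with overlap in the second comparison.

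Another 4 genes, without a symbol, had 2 models. Model 1 of Mp4g22220 made up 39.9, 41.8 and 36.4% of the counts in Mpfer-1, against 81.0, 76.5 and 78.1% in Tak-1, the largest shift of the 14 genes in that comparison at -39.1 points. Its share was 55.2, 41.4 and 64.8% in the libraries labelled Mpmri-1, against 79.2, 79.9 and 76.1% in Tak-2, a shift of -24.6 points. Every wild-type library lay above every mutant library. Most of the difference in level lay in model 2, at 53.3 ± 6.59 CPM in Mpfer-1 against 14.9 ± 1.68 CPM in Tak-1 and 38.4 ± 14.9 CPM in libraries labelled Mpmri-1 against 11.4 ± 1.12 CPM in Tak-2. Model 1 was lower in Mpfer-1, at 34.5 ± 0.697 CPM against 54.6 ± 4.11 CPM in Tak-1, but not in the libraries labelled Mpmri-1, at 42.7 ± 6.48 CPM against 41.3 ± 1.89 CPM in Tak-2. This gene therefore had a lower share of model 1 in both lines without a lower level of that model in both.

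Model 1 of Mp8g07110 had shares of 59.5, 66.4 and 59.7% in Mpfer-1, against 34.6, 37.7 and 29.9% in Tak-1. Its shares were 53.2, 68.5 and 55.6% in the libraries labelled Mpmri-1, against 36.7, 38.2 and 33.6% in Tak-2. With shifts of 27.8 and 23.0 points and no overlap, model 1 held most counts in both lines and model 2 in both wild types. Its level was 21.1 ± 1.78 CPM in Mpfer-1 against 8.00 ± 0.521 CPM in Tak-1, and 18.9 ± 5.14 CPM in libraries labelled Mpmri-1 against 8.07 ± 0.614 CPM in Tak-2. The level of model 2 was close in all groups, from 12.7 to 15.6 CPM.

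Model 1 of Mp8g13160 made up 77.0, 91.0 and 69.2% of the counts in Mpfer-1, against 60.7, 45.1 and 76.9% in Tak-1. It made up 99.999, 85.1 and 76.7% in the libraries labelled Mpmri-1, against 65.7, 59.5 and 45.5% in Tak-2. This was the single gene of the 14 whose shares overlapped between Mpfer-1 and Tak-1, and the single one whose leading model was the same in all 4 groups. Without Tak-1 replicate B or without Mpfer-1 replicate B it no longer met the rule, and the shift of 18.2 points in Mpfer-1 came down to 10.3 points without Tak-1 replicate B.

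Model 1 of Mp2g19010 made up 29.1, 46.4 and 32.3% of the counts in Mpfer-1, against 50.1, 67.7 and 64.2% in Tak-1. In the libraries labelled Mpmri-1 the share was 51.7, 27.5 and 40.0%, against 67.3, 53.3 and 44.9% in Tak-2, and here the groups overlapped. The shifts were -24.7 and -15.4 points. Its 2 models differed in another way from those of MpPKC1: model 1 had about the same level in Mpfer-1 (9.10 ± 2.23 CPM) as in Tak-1 (9.14 ± 1.64 CPM), and model 2 was higher, at 16.3 ± 2.50 CPM in Mpfer-1 against 5.88 ± 1.25 CPM in Tak-1.

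Of the genes with 3 models, Mp4g16470 had model 1 at 39.3, 41.4 and 46.3% in Mpfer-1, against 26.7, 20.9 and 20.4% in Tak-1. Model 1 was at 35.4, 48.2 and 27.5% in the libraries labelled Mpmri-1, against 19.8, 17.8 and 27.2% in Tak-2. The lowest library labelled Mpmri-1 lay only just above the highest Tak-2 library. Model 2 moved the other way, at 31.4 ± 1.78% in Mpfer-1 against 52.4 ± 7.04% in Tak-1 and 36.9 ± 2.69% in the libraries labelled Mpmri-1 against 51.9 ± 2.21% in Tak-2. The mean share of model 3 was between 24.9 and 26.5% in every group.

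Model 3 of Mp1g05550 was at 31.2, 29.4 and 21.1% in Mpfer-1, against 55.3, 44.3 and 31.4% in Tak-1. It was at 39.4, 24.4 and 39.5% in the libraries labelled Mpmri-1, against 50.3, 49.8 and 50.5% in Tak-2. Tak-2 spread by an SD of 0.321 points and Tak-1 by 11.97 points, and the highest Mpfer-1 library lay just below the lowest Tak-1 library. Model 2 held most of the other counts, at 90.5 ± 6.01 CPM in Mpfer-1 against 56.9 ± 9.56 CPM in Tak-1 and 70.4 ± 9.44 CPM in libraries labelled Mpmri-1 against 42.7 ± 0.728 CPM in Tak-2.

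Model 3 of Mp7g01880 had shares of 35.8, 35.1 and 32.9% in Mpfer-1, against 49.6, 52.9 and 47.0% in Tak-1. Its shares in the libraries labelled Mpmri-1, at 14.3, 35.1 and 20.5%, overlapped those in Tak-2, at 30.3, 39.1 and 57.0%. With a shift of -15.3 points in Mpfer-1 this gene stood nearest to the limit, and it no longer met the rule without Tak-1 replicate B, Mpfer-1 replicate C, Tak-2 replicate C or Mpmri-1 replicate A. No model of it was higher in level in both lines on the scale of TMM, a normalization that allows for differences in RNA composition. The gene as a whole was lower in both, at 43.6 ± 3.76 CPM in Mpfer-1 against 50.04 ± 3.62 CPM in Tak-1 and 23.2 ± 3.43 CPM in libraries labelled Mpmri-1 against 39.9 ± 4.90 CPM in Tak-2.

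Of the 4 genes with more than 3 models, Mp6g04740 had 6. There model 1 made up 53.1, 60.4 and 61.1% of the counts in Mpfer-1, against 20.6, 17.0 and 35.4% in Tak-1. It made up 61.9, 61.1 and 41.1% in the libraries labelled Mpmri-1, against 19.8, 29.1 and 30.8% in Tak-2. The shifts were 33.9 and 28.1 points with no overlap. Model 5 was at 23.5 ± 4.59% in Mpfer-1 against 51.3 ± 4.89% in Tak-1, and at 24.8 ± 6.11% in the libraries labelled Mpmri-1 against 49.0 ± 2.74% in Tak-2. The 2 models thus exchanged places, while the gene was at 144 ± 5.15 CPM in Mpfer-1 against 135 ± 8.50 CPM in Tak-1, and at 133 ± 19.998 CPM in libraries labelled Mpmri-1 against 124 ± 9.60 CPM in Tak-2.

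In Mp5g04160, with 5 models, model 3 made up 26.5, 27.9 and 31.6% of the counts in Mpfer-1, against 50.5, 50.5 and 55.3% in Tak-1. Its share was 27.9, 12.9 and 18.0% in the libraries labelled Mpmri-1, against 49.6, 38.6 and 33.2% in Tak-2. The models that held more of the counts were not the same in the 2 lines. Model 4 was at 28.7 ± 0.722% in Mpfer-1 against 14.3 ± 3.16% in Tak-1, but at 23.0 ± 6.02% in the libraries labelled Mpmri-1 against 23.3 ± 2.82% in Tak-2. Model 1 was at 25.2 ± 1.98% in Mpfer-1 against 22.9 ± 4.59% in Tak-1, but at 44.4 ± 5.67% in the libraries labelled Mpmri-1 against 24.1 ± 6.73% in Tak-2. The 2 lines therefore shared the lower share of model 3 and differed in what stood in its place.

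In Mp3g14570, also with 5 models, model 2 was at 38.6, 42.8 and 40.6% in Mpfer-1, against 29.0, 19.5 and 26.6% in Tak-1. It was at 45.2, 57.6 and 51.2% in the libraries labelled Mpmri-1, against 33.7, 34.4 and 34.4% in Tak-2. In level model 2 hardly differed in the second comparison, at 49.8 ± 12.7 CPM in libraries labelled Mpmri-1 against 48.5 ± 1.77 CPM in Tak-2. The gene as a whole was lower, at 96.1 ± 15.3 CPM in libraries labelled Mpmri-1 against 142 ± 4.20 CPM in Tak-2. Models 1, 3, 4 and 5 all had lower mean levels in both lines. Model 3 was at 10.2 ± 4.11 CPM in Mpfer-1 against 25.6 ± 3.21 CPM in Tak-1 and 6.89 ± 3.32 CPM in libraries labelled Mpmri-1 against 17.1 ± 0.660 CPM in Tak-2. Model 4 averaged 55.3 CPM in Mpfer-1 against 67.9 CPM in Tak-1, and 33.6 CPM in libraries labelled Mpmri-1 against 60.9 CPM in Tak-2.

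Mp3g02140, with 24 models, was at a low level, from 206 to 796 counts per library, so that its counts were divided most finely. Model 15 made up 65.6, 42.5 and 38.4% of them in Mpfer-1, against 20.8, 16.6 and 21.5% in Tak-1. It made up 37.6, 14.9 and 56.0% in the libraries labelled Mpmri-1, while the 3 Tak-2 libraries together held 1.13e-05 estimated counts of it. The 3 libraries labelled Mpmri-1 had the widest spread of the 14 genes, with an SD of 20.6 points. Against the 3 counts that a count of 0 allows over the group, model 15 of the group labelled Mpmri-1 was at least 111-fold higher than that of Tak-2, a bound for counting error only. Without Mpmri-1 replicate C, model 15 was 64.3-fold higher by the same measure. By edgeR the 2 wild types themselves were called different in this model. The gene was not called by every alternative, as given with the wild types. In the gene as a whole the lines went opposite ways, at 21.1 ± 2.09 CPM in Mpfer-1 against 13.6 ± 1.02 CPM in Tak-1, and 10.7 ± 2.70 CPM in libraries labelled Mpmri-1 against 15.3 ± 0.901 CPM in Tak-2.

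**Figure D3:**
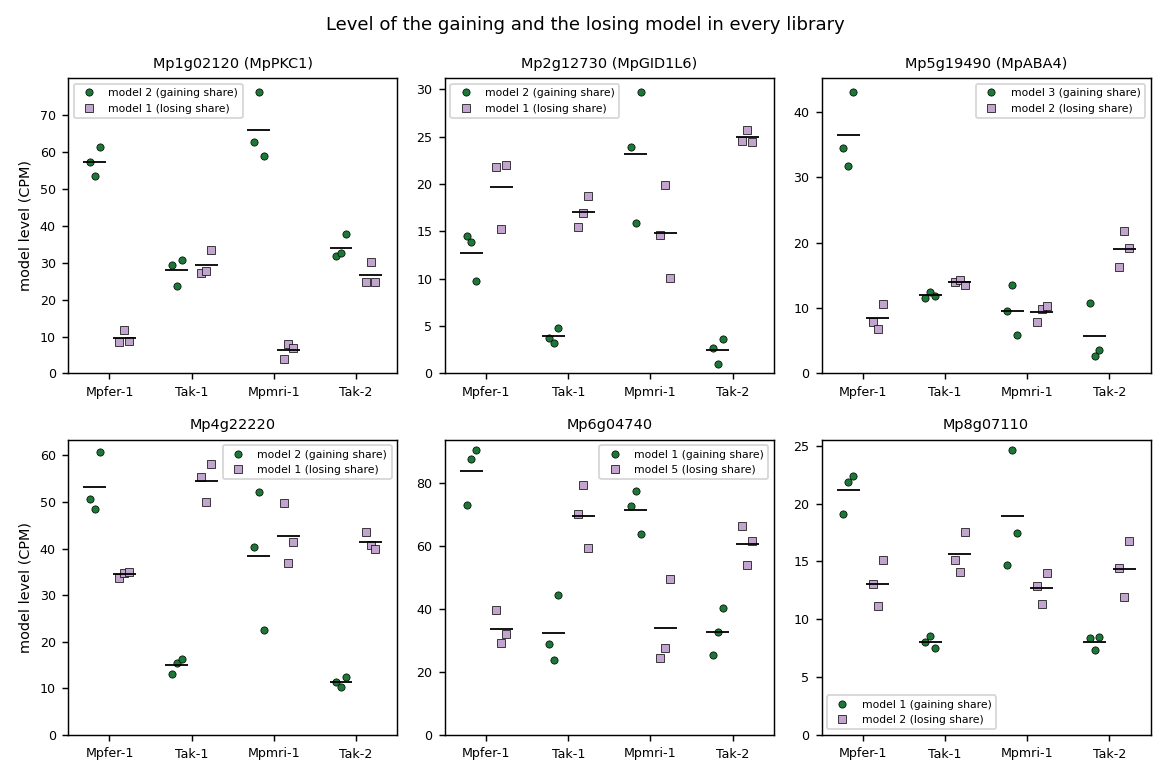
Level in CPM of the model with the higher share in the lines (gaining) and of the one with the lower share (losing), in every library (points), for 6 of the 14 genes, with group means (line, n = 3). In MpPKC1 the losing model is at 9.66 CPM in Mpfer-1 and 29.4 CPM in Tak-1 on average, and the gaining model at 57.2 and 27.9 CPM.

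Over the 14 genes, the shares of the switching model did not overlap between Mpfer-1 and Tak-1 in 13, and between Mpmri-1, as labelled, and Tak-2 in 12. Over all 4305 models of the 1622 genes with counts, 21.2% and 21.9% did not overlap. The rule chose genes by these same shares, so nothing is read from the difference. The leading model, the one with most counts, was another one in Mpfer-1 than in Tak-1 in 10 genes and another in Mpmri-1 than in Tak-2 in 10, with 7 genes in both. A share of counts is not a share of molecules, since a longer model gives more counts per molecule. The lengths of the models were not at hand, so the size of a shift in molecules, and whether it would reach 15 points, is not known. In 10 genes the gaining model was higher in level and the losing model lower in both comparisons by column totals, and likewise in 10 on the TMM scale. In the other 4 by column totals, at least 1 of these models did not differ that way in 1 of the comparisons. The shift was larger in Mpfer-1 in 9 genes and in Mpmri-1 in 5. The median of the smaller shift was 20.8 points, and the SD of a share within a group had a median of 5.16 points.

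The nearest genes on either side of the limit had much the same values. Just inside it were Mp7g01880, Mp4g16470 and Mp2g19010, with smaller shifts of 15.3, 15.4 and 15.4 points. Just outside were Mp5g07630 (-18.4 points in Mpfer-1 and -14.1 points in Mpmri-1), Mp4g19840 (-14.0 and -19.3 points) and Mp4g03610 (-15.4 and -13.8 points). The 50 genes past the limit in Mpfer-1 alone had a median shift of 18.5 points there and of 6.81 points in Mpmri-1, with the same sign in 31. The 85 past it in Mpmri-1 alone had a median of 18.4 points there and of 5.37 points in Mpfer-1, with the same sign in 51. When 1 library at a time was left out, 7 of the 14 genes met the rule each time: MpPKC1, MpGID1L6, MpABA4, Mp4g22220, Mp5g04160, Mp6g04740 and Mp8g07110. Mp3g02140 did not meet it without Mpmri-1 replicate C, and Mp1g05550, Mp2g19010, Mp3g14570 and Mp4g16470 did not without Mpmri-1 replicate B. Mp1g05550 also failed it without Tak-1 replicate A or Mpfer-1 replicate C, Mp2g19010 without Tak-2 replicate A, Mp3g14570 without replicate B of Tak-1 or Mpfer-1, and Mp4g16470 without Tak-2 replicate B. Mp7g01880 and Mp8g13160 failed it without the libraries named with each.

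**Figure D4:**
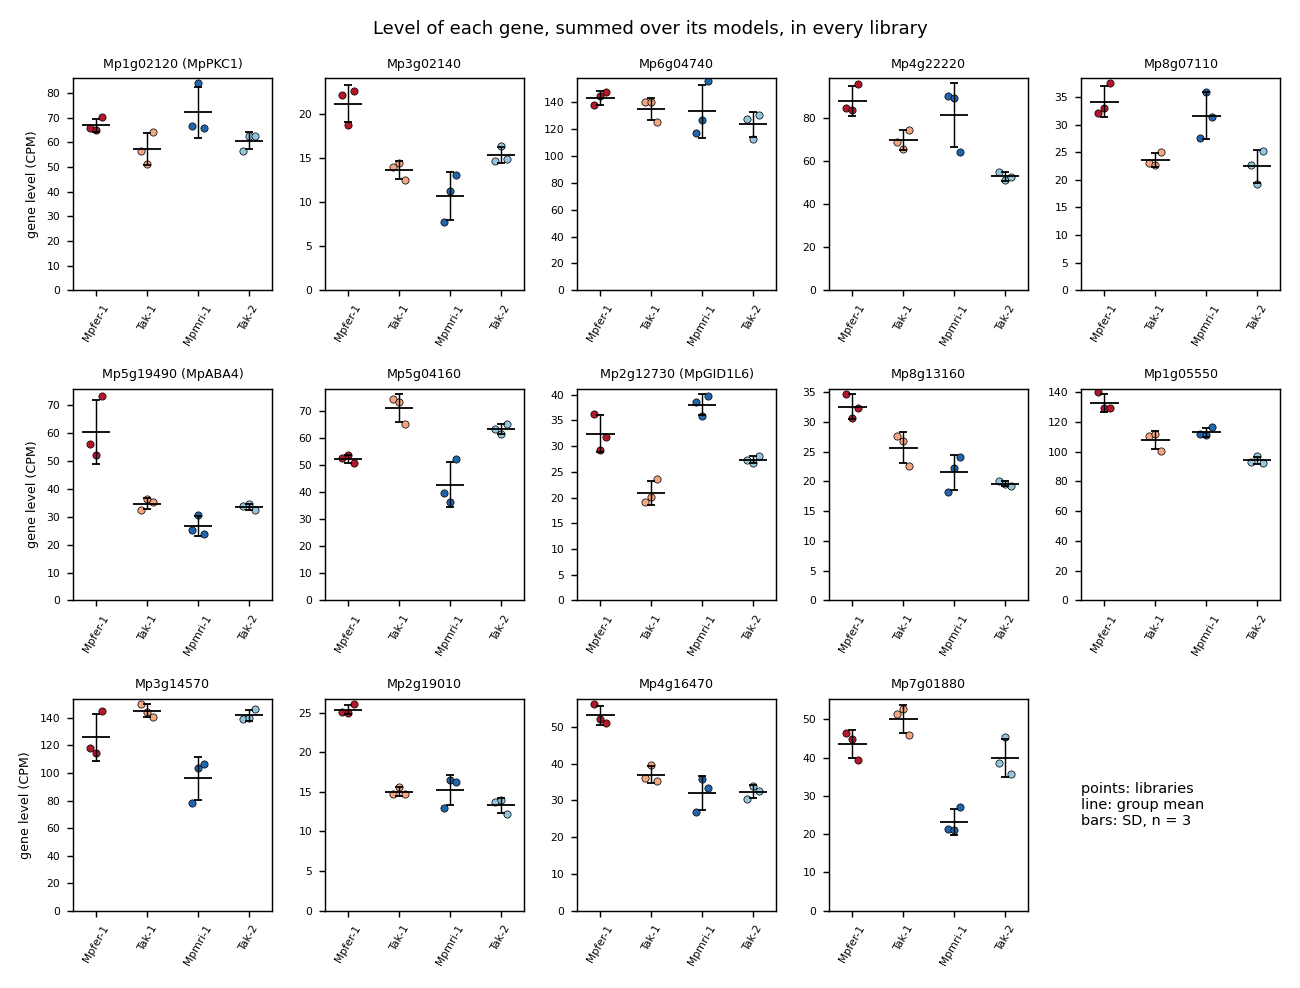
Level in CPM of each of the 14 genes, summed over its models, in every library (points), with the group mean (line) and SD (bars, n = 3). MpABA4 and Mp3g02140 are higher in Mpfer-1 than in Tak-1 and lower in Mpmri-1 than in Tak-2, with no overlap.

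By the rule, no gene level differed by a factor of 2, yet the levels were not all alike. On the TMM scale 8 of the 14 genes were higher in both lines by their means, 3 were lower in both (Mp3g14570, Mp5g04160 and Mp7g01880) and 3 went opposite ways (Mp3g02140, MpABA4 and Mp6g04740). Column totals gave the same counts with 1 exchange, since Mp6g04740 was then higher in both (ratios 1.06 and 1.08) and Mp4g16470 mixed (1.43 and 0.991). In 8 genes the gene level overlapped in neither comparison. How many of all genes did so was not counted, so the 8 are not read as a trait of the set. Differences in level were common among the 14044 genes tested by edgeR's quasi-likelihood test. At an adjusted p under 0.05, 29.1% rose and 27.1% fell against Tak-1, and 33.0% rose and 31.1% fell against Tak-2.

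The rule did not use the contrasts between the 2 wild types and between the 2 lines. They share their libraries with the comparisons of the rule, and each also sets a female against a male group. Tak-2 against Tak-1 asks whether the 2 wild types divide the counts alike. By edgeR's diffSpliceDGE, an F test per gene on the counts of its models, 114 of 2484 genes tested (4.59%) were called at an adjusted p under 0.05, and 61 of the 1572 tested genes that met the other limits (3.88%). Of the 14 genes 1 was called, Mp3g02140, whose model 15 differed by -19.7 points (adjusted p = 0.000285 for the gene and 0.00101 for model 15 alone). MpABA4 had 16.7 points more of model 2 in Tak-2, and its 3 Tak-2 libraries lay above the 3 Tak-1 libraries (edgeR adjusted p = 0.103). In MpGID1L6 model 2 differed by -9.78 points, also with no overlap (edgeR adjusted p = 0.130). Limma's diffSplice on voom values, an alternative, called MpABA4 (adjusted p = 0.0162) and not Mp3g02140 (adjusted p = 0.0528), and edgeR called MpABA4 without Tak-2 replicate A (adjusted p = 0.000118). Over the 14 genes the median difference between wild types was 7.61 points, taking for each gene the model that differed most, against 2.93 points over the 1622 genes, and 5 switching models did not overlap where 17.0% of all models did not. The rule chose the 14 genes by shares in these same libraries, so nothing is read from the gap between the sets.

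Mpmri-1 against Mpfer-1 asks how far the 2 lines resemble each other. Model shares were called different in 137 of 2484 genes (5.52%), and in 84 of the 1572 that met the other limits (5.34%). By edgeR's diffSpliceDGE, 2 of the 14 genes were called. MpABA4 had 21.5 points more of model 2 in the libraries labelled Mpmri-1 than in Mpfer-1 (adjusted p = 0.0167), higher in 3 of 3 libraries. These p-values are for all models of a gene together, and for model 2 alone the adjusted p was 0.0612. Mp5g04160 differed by -9.05 points in model 3 (adjusted p = 0.0167 for the gene and 0.381 for model 3 alone). Its shares overlapped in that model, and a larger difference lay in model 1, at 44.4 ± 5.67% in the libraries labelled Mpmri-1 and 25.2 ± 1.98% in Mpfer-1. By Simes' method over the models the adjusted p was 0.0836 for MpABA4 and 0.110 for Mp5g04160. The call of MpABA4 was lost without Mpfer-1 replicate A or B or Mpmri-1 replicate C (edgeR adjusted p = 0.0755, 0.0629 and 0.0527), and that of Mp5g04160 without any 1 of the Mpfer-1 libraries or Mpmri-1 replicate C (0.0679 to 0.163). MpPKC1 was next, at -5.95 points (edgeR adjusted p = 0.0505), and 6 of the 14 genes were called without Mpmri-1 replicate B. The median largest difference was 9.41 points over the 14 genes and 3.71 points over the 1622, and 3 switching models did not overlap, against 20.4% of all models. Here too the rule used shares in these libraries, and nothing is read from the gap.

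In gene level, Tak-2 against Tak-1 was likewise no part of the rule. Higher genes made up 17.1% and lower genes 18.0% of the 14044 tested by edgeR's quasi-likelihood test. MpGID1L6 was higher in Tak-2 (log2 fold change 0.49, SE 0.11, adjusted p = 0.00448), in 3 of 3 libraries by CPM. Mp8g13160 was lower (log2 fold change -0.27, SE 0.080, adjusted p = 0.0197), and this call was lost without Tak-1 replicate A or B, or Tak-2 replicate B or C. The other 12 genes were not called at the level of the gene.

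**Figure D5:**
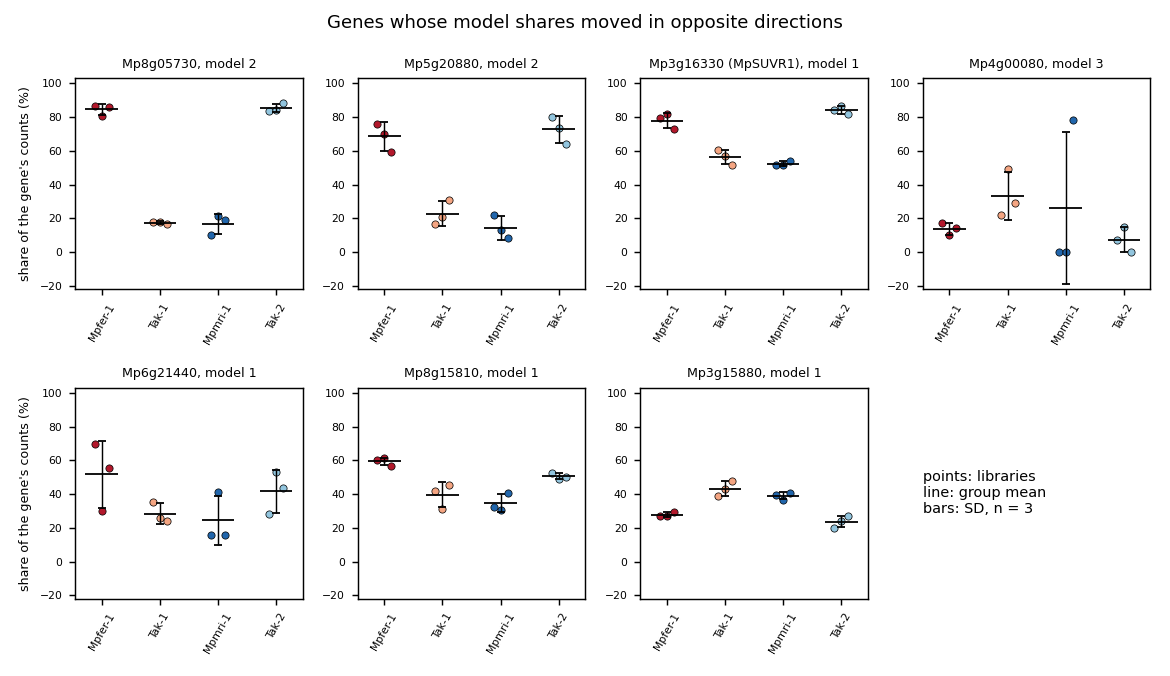
Share of the gene's counts (%) taken by the shifted model of the 7 genes that moved in opposite directions in the 2 lines, by library (points), with the group mean (line) and SD (bars, n = 3). In Mp8g05730 the means are 84.6% in Mpfer-1, 17.6% in Tak-1, 16.9% in Mpmri-1 and 85.4% in Tak-2.

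The 7 genes with opposite shifts of 15 points or more in the same model give the nearest comparison. They were chosen from the same values and are described without a test. Model 2 of Mp8g05730 made up 86.9, 80.7 and 86.1% of the counts in Mpfer-1, against 18.2, 18.0 and 16.6% in Tak-1. It made up 10.1, 21.2 and 19.2% in the libraries labelled Mpmri-1, against 83.6, 84.5 and 88.2% in Tak-2. Mpfer-1 thus sat beside Tak-2, and Mpmri-1 beside Tak-1. Model 2 of Mp5g20880 had the same arrangement, at 68.6 ± 8.38% in Mpfer-1 against 22.8 ± 7.47% in Tak-1 and 14.5 ± 7.06% in the libraries labelled Mpmri-1 against 72.7 ± 7.91% in Tak-2. So had model 1 of MpSUVR1 (Mp3g16330), named after a family of SET-domain proteins of Arabidopsis, at 78.1 ± 4.62% in Mpfer-1 against 56.4 ± 4.37% in Tak-1 and 52.5 ± 1.51% in the libraries labelled Mpmri-1 against 84.1 ± 2.28% in Tak-2. In 5 of the 7 genes neither comparison overlapped. In Mp4g00080 the libraries labelled Mpmri-1 disagreed, with model 3 at 78.4% in 1 of them and at 0.00 and 0.000165% in the others. In Mp6g21440 both comparisons overlapped. Its model 1 was at 69.6, 30.3 and 55.5% in Mpfer-1 against 35.4, 25.7 and 24.1% in Tak-1. It was at 16.0, 41.3 and 15.9% in the libraries labelled Mpmri-1 against 28.3, 53.0 and 43.4% in Tak-2. Between wild types the 14 genes had a median largest difference of 7.61 points, and the 7 genes one of 26.2 points. The way each set was chosen bears on this: with opposite shifts the wild types or the lines must stand apart.

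Few other features could be compared. The 14 genes lay on all 8 autosomes by their identifiers. They had a median of 3 models against 2 over the 1622 genes, and a median level of 39.0 CPM over the 4 groups against 43.6 CPM. Their counts came from estimates: 12 of the 14 had model values that were all fractional, as when reads are divided between models that share sequence, and the median over the 1622 genes was likewise 0% whole values. The number of models equalled the number of proteins in the reference table in 3 of the 14 genes, and in 698 of the 1620 that could be joined to it among the 1622 genes (43.1%).

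Lists of other genes were fixed by words in the symbols. The list of RNA processing genes, which would hold the splicing machinery, matched only MpGRP7, a glycine-rich RNA-binding protein by its name, and MpPRPL, which may have been matched by its letters alone. Both had 1 model. MpGRP7 was at 1732 ± 71.2 CPM in Mpfer-1 against 1548 ± 90.5 CPM in Tak-1 (log2 fold change -0.02, SE 0.12, edgeR adjusted p = 0.929), and at 1972 ± 168 CPM in libraries labelled Mpmri-1 against 1631 ± 20.7 CPM in Tak-2, where it was called higher (0.42, SE 0.12, adjusted p = 0.00914). MpPRPL was at 229 ± 17.2 CPM in Mpfer-1 against 321 ± 2.94 CPM in Tak-1, where it was called lower (log2 fold change -0.66, SE 0.12, edgeR adjusted p = 0.000578). It was at 295 ± 35.9 CPM in libraries labelled Mpmri-1 against 338 ± 8.32 CPM in Tak-2 and was not called there (-0.05, SE 0.12, adjusted p = 0.745). The list of RNA decay genes matched 0 genes. The symbols are thus too few to describe splicing factors in these lines.

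The circadian clock and light list, whose genes time daily rhythms and relay light signals, matched 11 genes, 3 of them by a synonym and 1, MpCOP10, by its first letters only. None of the 11 was among the 14 genes, although 8 had 2 or more models and 6 met the limits other than the shift. In gene level, 8 fell and 0 rose in Mpfer-1 against Tak-1, where 27.1% of all genes fell and 29.1% rose, with a median log2 fold change of -0.31 against 0.02 over all genes. In Mpmri-1 against Tak-2, 7 fell and 0 rose, where 31.1% of all genes fell and 33.0% rose, with a median of -0.28 against 0.00. At an unadjusted p under 0.05, and by DESeq2, 0 rose in either comparison. By column totals 4 fell in the first comparison and 10 in the second, and 10 fell in the second without Mpmri-1 replicate C. MpCOP1, which in Arabidopsis is a ubiquitin ligase that represses light responses, fell in Mpfer-1 (59.4 ± 1.33 CPM against 86.2 ± 6.09 CPM in Tak-1, log2 fold change -0.71, edgeR adjusted p = 2.93e-05) and in the libraries labelled Mpmri-1 (45.7 ± 9.50 CPM against 105.5 ± 4.48 CPM in Tak-2, log2 fold change -1.08, adjusted p = 8.51e-07). MpGARP7 and MpBHLH6 also fell in both, MpGARP7 by log2 fold changes of -0.82 and -0.91, and MpBHLH6 by -0.60 and -0.76. MpBHLH6 has 13 models, yet its largest shift was 4.08 points in Mpfer-1 and 7.52 points in Mpmri-1.

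The abscisic acid list held 11 genes, of which 8 could be tested and only MpABI5B had 2 models. MpABA4 was not on it, since its symbol holds none of the words. Of the 8, 4 rose and 2 fell in Mpfer-1, where 29.1% of all genes rose and 27.1% fell. In Mpmri-1, 6 rose and 1 fell, where 33.0% of all genes rose and 31.1% fell. The median log2 fold changes of the list were 0.21 and 0.52, against 0.02 and 0.00 over all genes. By column totals, 1 fell in Mpfer-1. The median in Mpfer-1 was 0.38 by column totals, 0.12 without Mpfer-1 replicate C, 0.34 without Mpfer-1 replicate B and 0.07 without a filter on low counts. In Mpmri-1 it was 0.31 without that filter. MpABI5B, named after a bZIP transcription factor of the abscisic acid response in Arabidopsis, rose to 95.1 ± 15.2 CPM in Mpfer-1 against 26.6 ± 0.0888 CPM in Tak-1 (log2 fold change 1.66, edgeR adjusted p = 2.6e-06) and to 47.3 ± 11.8 CPM in libraries labelled Mpmri-1 against 32.2 ± 1.46 CPM in Tak-2 (0.69, adjusted p = 0.00154). Its models shifted by 4.11 and 4.24 points at most. MpABI3A rose in both as well (log2 fold changes 1.37 and 1.02), while MpABI5A fell in both (-0.92 and -0.98).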

How the data were processed

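Per the labels' protocols, mRNA libraries were made with a stranded kit, with spike-in RNA. The authors deposited estimated counts, not normalized, for 23399 transcript models in 12 libraries. The submitters' processing notes name FastQC, fastp and DESeq2. The quantifier, the genome build and the annotation were each not given in the sources used here. All columns matched a sample by name.

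Counts were summed per gene by identifier. CPM are counts scaled by the column total. A share was computed per library and averaged over 3 libraries. Estimated counts were rounded for tests. Model shares were tested with edgeR 4.0.16 (diffSpliceDGE, filterByExpr, TMM factors 0.798 to 1.19) in R 4.3.3, gene levels with edgeR's quasi-likelihood test, over all 12 libraries. The Benjamini-Hochberg adjustment ran over every gene tested, with calls at 0.05. Alternatives used limma 3.58.1, DESeq2 1.42.0, other scalings, filters and thresholds, and fewer libraries.

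Replicates differed by more than sampling noise (chi-square per degree of freedom 4.94 to 112). Intervals and bounds cover counting error only. Symbols came from a RefSeq table of the assembly MpTak2_v7.1, joined by locus number (17416 genes, 3095 symbols). That join is an assumption.

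The genes and lists were chosen with earlier results of these data known. Named genes are the 10 with the largest smaller shift, those with a symbol, the 3 with the highest CPM, the 3 with the smallest adjusted p in each contrast, the 3 on either side of the limit, the targeted genes, and up to 3 of each list. The genes with opposite shifts were chosen after their values were seen.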

Additional observations from a re-analysis of the deposited data

Results flagged for a closer look

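By column totals, the gene level of MpABA4 (Mp5g19490) moved opposite ways in the 2 lines, with no overlap of libraries. It was 55.9, 51.9 and 73.3 CPM in Mpfer-1 against 32.3, 36.3 and 35.4 CPM in Tak-1, a ratio of 1.74, and 25.4, 30.6 and 23.9 CPM in libraries labelled Mpmri-1 against 33.7, 34.3 and 32.4 CPM in Tak-2, a ratio of 0.795. Mp3g02140 did likewise, with 22.2, 18.7 and 22.5 CPM in Mpfer-1 against 13.96, 14.5 and 12.5 CPM in Tak-1, a ratio of 1.55, and 7.73, 11.2 and 13.0 CPM in libraries labelled Mpmri-1 against 14.7, 16.3 and 14.9 CPM in Tak-2, a ratio of 0.696. In both genes the switching model nevertheless shifted the same way. On that scale the median ratio over the 1622 genes was itself 1.15 in Mpfer-1 and 0.828 in Mpmri-1. On the TMM scale the log2 fold changes were 0.62 and -0.19 for MpABA4, and 0.46 and -0.40 for Mp3g02140. Overlap of libraries was not examined on the TMM scale. The differences between the lines' effects were not tested.

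Among the genes outside the 14, 5 had model shares that moved opposite ways with no overlap in either comparison. The shifts were 67.0 points in Mpfer-1 and -68.6 points in Mpmri-1 for model 2 of Mp8g05730, 45.8 and -58.2 points for model 2 of Mp5g20880, and 21.6 and -31.6 points for model 1 of MpSUVR1 (Mp3g16330). They were 19.7 and -16.1 points for model 1 of Mp8g15810, and -15.4 and 15.4 points for model 1 of Mp3g15880. These differences, too, were not tested, since the genes were picked by them.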

How the results depend on the processing

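The number of genes meeting the rule was 52 at a limit of 10 points and 8 at 20 points, 15 after TMM scaling with all 14 kept, and 13 to 20 with 1 library left out. Genes with opposite shifts numbered 27 at 10 points and 3 at 20 points. All 196 recomputed shifts of the 14 genes kept their direction. The genes were chosen for these same shifts, so this count says little about their stability. For model shares in Tak-2 against Tak-1, Simes' method called 57 genes in place of 114, limma on arcsine square roots of shares (chosen after seeing the data) 66, and leaving out a library gave 81 to 138. The arcsine test called 0 of the 14 genes (2 at an unadjusted p under 0.05; limma's voom fit called 1), and leaving out a library gave 1 to 2. In Mpmri-1 against Mpfer-1, limma's voom fit called 240 genes in place of 137, Simes' method 53, the arcsine test 59, and leaving out a library gave 85 (without Mpfer-1 replicate A) to 241 (without Mpmri-1 replicate C). Of the 14 genes, Simes' method called 0 (3 at an unadjusted p under 0.05), the arcsine test 1 (MpABA4), and leaving out a library gave 0 to 6, with 0 without Mpfer-1 replicate A or B.

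Without TMM, 4 of the 14 genes in place of 2 were called in level in Tak-2 against Tak-1, and leaving out a library gave 1 to 3. Counts of called gene levels ran from 6956 to 8482 in Mpfer-1, 8154 to 9473 in Mpmri-1 and 3586 to 5698 between wild types when a library was left out. Column totals moved the share of higher calls from 51.8 to 67.2% in Mpfer-1, from 51.5 to 42.2% in Mpmri-1 and from 48.8 to 30.1% between wild types, and the median log2 value over all genes to 0.20, -0.13 and -0.11.

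With the replicate block, 95 and 105 genes were called for shares in the contrasts of wild types and of lines, and 7659, 8834 and 4668 for level in Mpfer-1, Mpmri-1 and between wild types. The same 1 and 2 of the 14 genes were called for shares. Replicate letters did not pair the libraries: same-letter correlations of deviations ran from -0.38 to 0.26, 5 of 18 were over 0.1, and 2 of 12 libraries correlated best with their own letter.

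Depth limits the genes with few counts, the lowest being 206 counts for Mp3g02140 in 1 library. The division of reads between models is an estimate whose error the table does not hold.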
